A study of Mus musculus with 21 samples.

Results

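The NOVA, ELAV, CELF and PTBP RNA-binding protein genes were followed across cerebral cortex of mice that express human TDP-43, itself an RNA-binding protein. The genes Nova1, Elavl1, Elavl2, Elavl3, Elavl4, Celf1, Celf2, Celf4, Ptbp1 and Ptbp2 were taken by symbol from the annotation of an Affymetrix MOE430A 2.0 array, which gave 10 of the 12393 genes named there and 31 of 22626 probe sets. Each of the 21 arrays measured 1 mouse. The 5 dNLS bigenic mice (tTA/TDP-DeltaNLS) carried both the transactivator tTA and TDP-43 with a defective nuclear localization signal, in line NLS4. The 4 WT bigenic mice (tTA/TDP-WT) carried tTA and wild-type TDP-43, in line WT12. The 4 dNLS monogenic mice carried the NLS4 TDP-43 transgene without tTA, and the 8 nontransgenic mice carried neither transgene, 6 of them from line NLS4 and 2 from line WT12. All were on a mixed C57BL/6J x C3HeJ background, and all had been off doxycycline, the drug that keeps tTA inactive, for 2 weeks. Ages are not given in the labels, nor is the promoter that drives tTA. No group carried tTA alone, so tTA and TDP-43 cannot be told apart in the bigenic mice, and line and transgene cannot be told apart between both bigenic groups.

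These proteins bind RNA in the nucleus and cytoplasm and set how neuronal transcripts are spliced, stabilized and translated. NOVA1 is a neuronal splicing factor, and the ELAV proteins bind AU-rich and U-rich stretches of messenger RNA: ELAVL1 (HuR) is found in most cells, whereas ELAVL2, ELAVL3 and ELAVL4 (HuB, HuC and HuD) are largely neuronal. The CELF proteins bind GU-rich sequence, with CELF1 and CELF2 known from splicing and decay and CELF4 from excitatory neurons. PTBP1 represses neuronal exons in cells that are not neurons, and PTBP2 takes its place as neurons form.

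Promoter windows of the 3 genes whose levels are followed most closely below, Nova1, Elavl4 and Elavl3, are shown as reference sequence from RefSeq (GRCm38.p6). Each window runs from 250 bases before the annotated start to 50 bases after it, 5′ to 3′ on the gene's strand. Capitals mark matches on either strand to 5 motifs, none of which overlaps another in these windows. They are the GC box spelled GGGCGG, the CCAAT box spelled by its name, the TATA box spelled TATAAA, the E-box spelled CACGTG and the cyclic AMP response element spelled TGACGTCA.
Nova1, chr12:46818718-46819017, minus strand: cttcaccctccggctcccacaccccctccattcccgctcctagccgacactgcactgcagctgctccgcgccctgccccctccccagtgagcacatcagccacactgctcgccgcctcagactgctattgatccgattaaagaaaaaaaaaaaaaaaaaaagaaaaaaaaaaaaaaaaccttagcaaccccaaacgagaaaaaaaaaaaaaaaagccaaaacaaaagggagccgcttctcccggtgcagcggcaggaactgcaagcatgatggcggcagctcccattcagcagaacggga
Elavl4, chr4:110351862-110352161, minus strand, the first of 4 windows: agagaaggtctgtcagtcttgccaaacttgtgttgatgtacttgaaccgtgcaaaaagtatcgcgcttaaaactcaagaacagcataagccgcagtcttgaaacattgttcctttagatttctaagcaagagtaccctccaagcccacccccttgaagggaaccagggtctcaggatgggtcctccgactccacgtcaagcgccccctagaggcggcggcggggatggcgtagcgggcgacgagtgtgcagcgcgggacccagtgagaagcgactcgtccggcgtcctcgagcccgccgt
Elavl3, chr9:22051974-22052273, minus strand: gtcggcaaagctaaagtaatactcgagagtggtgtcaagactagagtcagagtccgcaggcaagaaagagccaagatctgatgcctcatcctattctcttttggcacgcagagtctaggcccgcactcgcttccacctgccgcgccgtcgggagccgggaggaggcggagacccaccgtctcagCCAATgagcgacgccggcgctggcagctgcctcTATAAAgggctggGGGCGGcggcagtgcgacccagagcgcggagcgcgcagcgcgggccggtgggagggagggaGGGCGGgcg

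The Elavl3 window held 2 GC boxes, 1 CCAAT box and 1 TATA box, and the windows of Nova1 and Elavl4 shown held none of the 5 motifs. The other 3 Elavl4 windows held 1 or 2 CCAAT boxes. Of 32851 windows of all genes, 35.7% held a GC box, 37.4% a CCAAT box, 13.6% a TATA box, 7.15% an E-box and 1.79% the cyclic AMP response element. The Elavl3 window was 65.3% G and C with 29 CG pairs. That of Elavl4 was 57.0% with 23 CG pairs, and that of Nova1 51.7% with 14, beside medians of 52.7% and 7 over all windows. No binding was measured, so a match or its absence is a description of the letters.

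Levels are the deposited log2 values, so a difference of 1 is a doubling. Of the 31 probe sets, 25 had a mean of at least 3, and 6 lay near the lowest value of the arrays, 2.04: 2 of Celf1 and 1 each of Nova1, Elavl2, Celf2 and Ptbp1. Of these 6, the Elavl2 and Ptbp1 ones were at 2.04 on every array and could show no change. Levels of different probe sets are not comparable, since probes differ in brightness.

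A measure of RNA quality moved with many members. Arrays primed from the poly(A) tail lose signal far from the 3' end when RNA is broken or copied incompletely, and the beta-actin 3' minus 5' difference gauges this. It was 8.20 on nontransgenic 6 and 4.70 on nontransgenic 4. The other arrays lay at 1.34 to 2.30 in dNLS bigenic mice, 1.37 to 1.43 in WT bigenic mice, 1.56 to 3.13 in dNLS monogenic mice and 1.46 to 3.27 in nontransgenic mice, so every WT bigenic array lay below every nontransgenic array in this measure. On those 2 nontransgenic arrays, 11 of the 25 probe sets read below the range of the other 6 nontransgenic arrays both times, and 7 read above it both times. The part of this in each result was not tested beyond the values given with and without those arrays or with the beta-actin difference as a covariate. Nontransgenic 1, labelled male, read as female by Xist and Y-linked genes. Its label was kept.

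In dNLS bigenic mice Nova1 was 5.03-fold lower than in nontransgenic mice, Elavl4 and Elavl1 were lower by smaller amounts on 1 probe set each, and Elavl3 was higher on 2 probe sets. By limma with Benjamini-Hochberg adjustment over all probe sets at 0.05, 5 of the 31 member probe sets passed, which is 16.1%, against 19.3% of all probe sets, so the share was near the background. Of these 2 were higher (10.1% of all probe sets were) and 3 were lower (9.29% of all). Another 26 did not pass, and 12 of the 31 had an unadjusted p under 0.05. All probe sets include 5810 at the lowest value on every array, which could not pass, and the members include 2. With dim probe sets filtered, only those above the lowest value on at least 4 arrays were fitted and adjusted. In that setting 9 of 29 members and 4921 of 15639 probe sets passed. Whole cortex was measured, so fewer cells of a type and less RNA per cell cannot be told apart. The median change was 0.01 over the members and 0.00 over all probe sets. The plot of changes by probe set gives each change with its standard error.

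**Figure D1:**
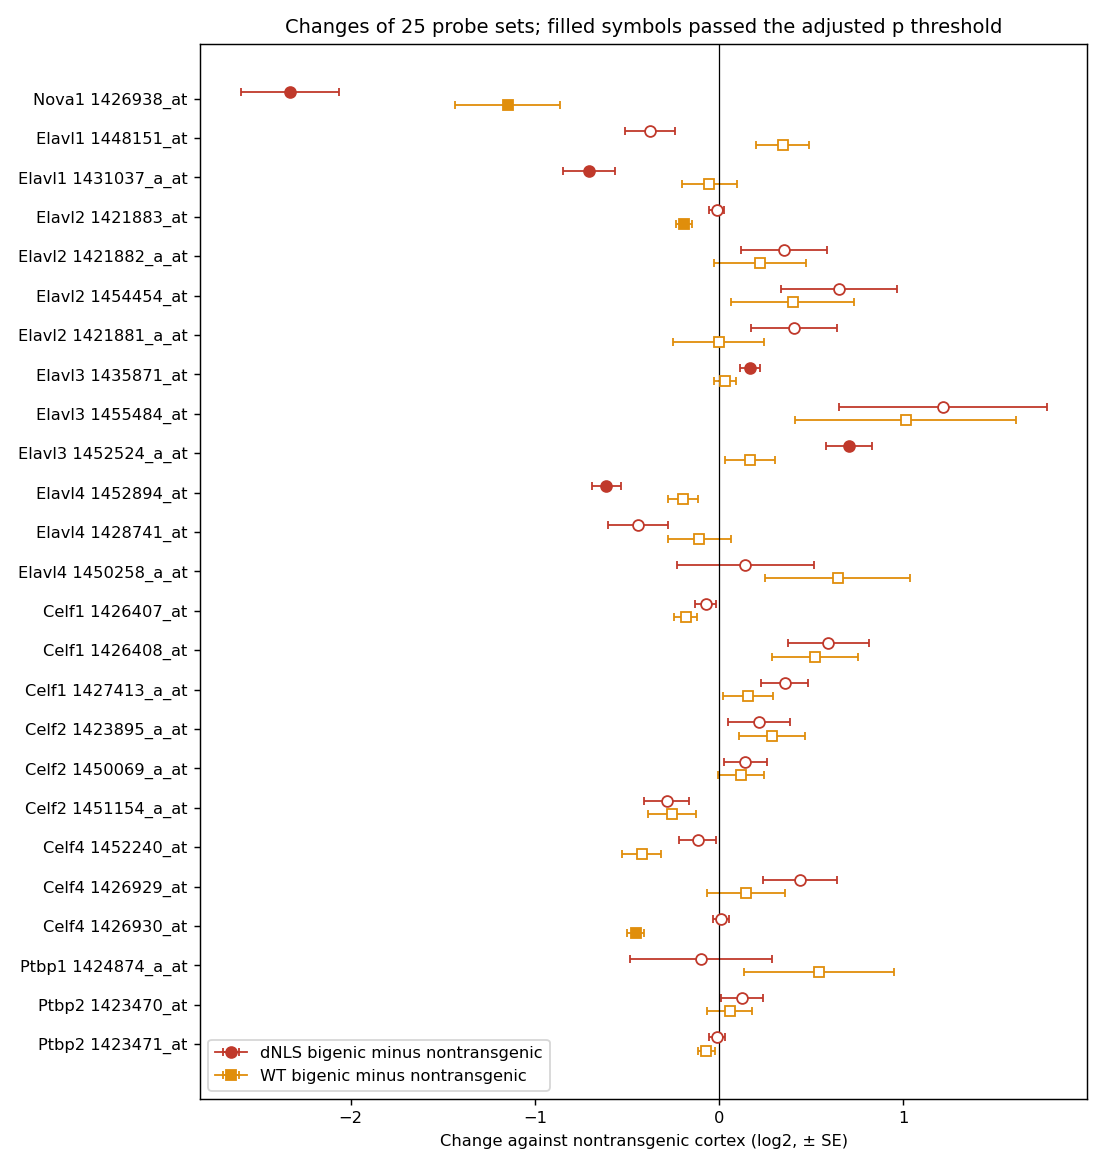
Log2 change against nontransgenic cortex (x axis, ± SE) for the 25 member probe sets with a mean of at least 3, for dNLS bigenic mice (circles) and WT bigenic mice (squares). Filled symbols passed the adjusted p threshold of 0.05. Nova1 lies farthest left in both comparisons, at -2.33 and -1.15, and the wide bars are those of probe sets that varied most among nontransgenic arrays.

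Nova1 was read by 1426938_at. Its log2 levels in the 5 dNLS bigenic mice were 6.89, 6.48, 6.55, 6.61 and 7.51. In the WT bigenic mice they were 8.42, 8.45, 7.17 and 7.98, and in the dNLS monogenic mice 8.53, 8.86, 8.78 and 8.78. The 8 nontransgenic mice ran from 8.54 to 9.97 with a median of 9.23. All dNLS bigenic and all WT bigenic arrays lay below all nontransgenic ones, and both bigenic groups overlapped, since WT bigenic 3 was below dNLS bigenic 5. The change was -2.33 ± 0.27 (SE, adjusted p = 8.5e-06, limma) for dNLS bigenic against nontransgenic mice. It stayed past the threshold in all 33 alternative settings, from -2.60 to -2.07.

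The nontransgenic arrays with the large 3' bias read Nova1 0.78 higher than the other 6, and without them the change in dNLS bigenic mice was -2.15 (adjusted p = 1.6e-05). Against dNLS monogenic mice, Nova1 in dNLS bigenic mice was lower by 3.81-fold, at -1.93 ± 0.31 (adjusted p = 3.5e-04, limma), with no overlap. The WT bigenic change was -1.15 ± 0.28 (adjusted p = 0.0483, limma) and sat at the threshold. It lost its call in 24 of 33 alternatives. These included leaving out any WT bigenic mouse (adjusted p up to 0.179) or the 2 arrays of large bias (-0.94, adjusted p = 0.0764), using the beta-actin difference as a covariate (-0.82, adjusted p = 0.132), and using only the 2 nontransgenic mice of line WT12 (-0.83, adjusted p = 0.637). In the direct comparison, Nova1 in dNLS bigenic mice was lower than in WT bigenic mice by 1.18 ± 0.33 (SE) on the log2 scale (adjusted p = 0.0319, limma), and 8 of 32 alternatives ended that call, with an adjusted p of up to 0.218, without WT bigenic 1. The order of the levels was thus dNLS bigenic, WT bigenic, dNLS monogenic and nontransgenic from low to high, and the last pair did not differ past the threshold, at -0.40 with a 95% interval of -1.0 to 0.20.

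**Figure D2:**
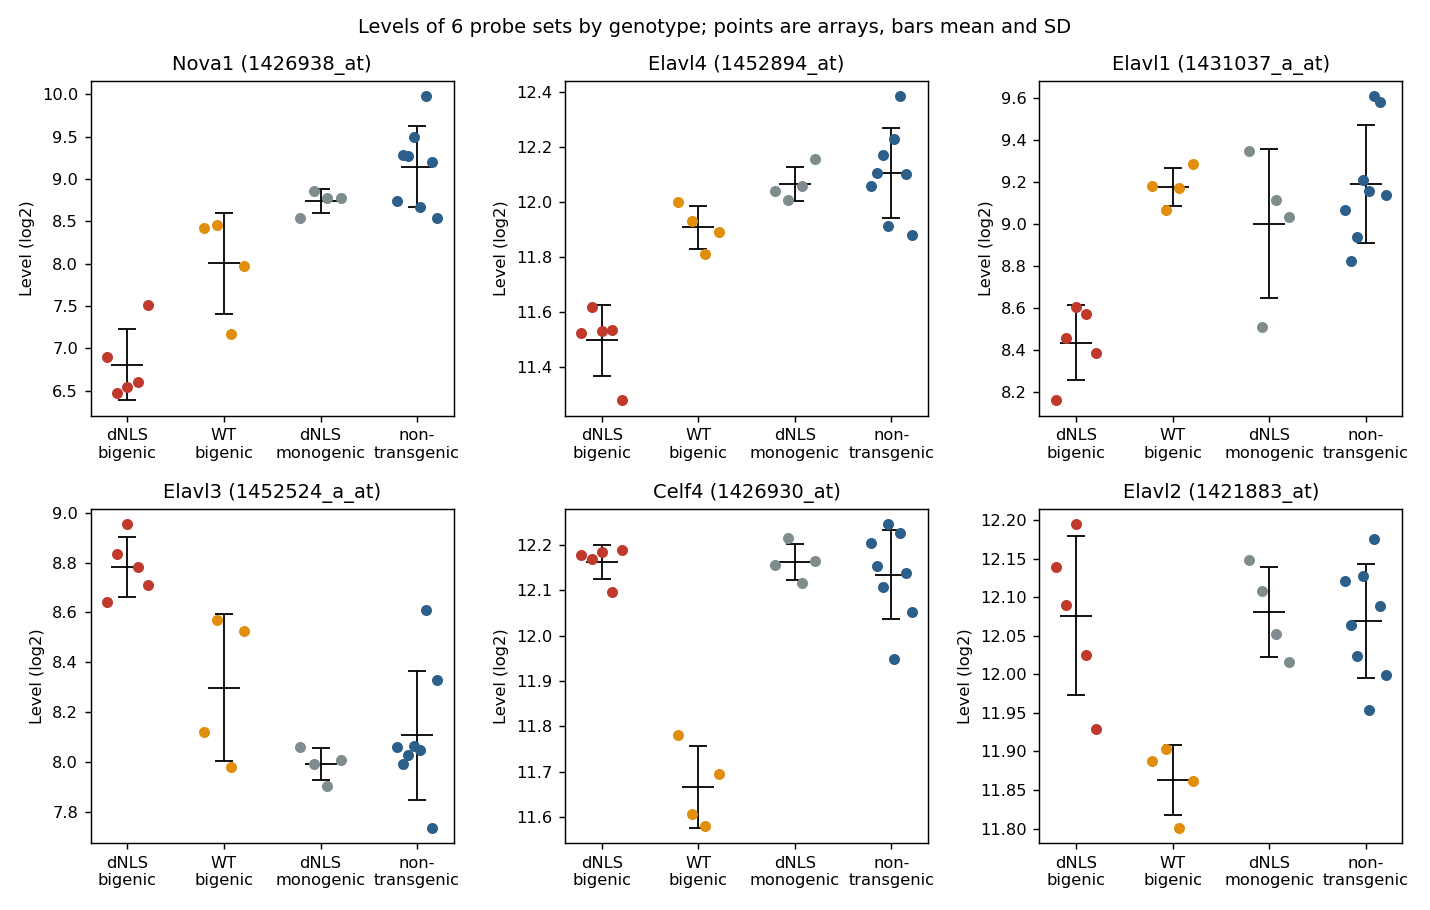
Log2 levels (y axis, a different range in each panel) of 6 member probe sets in dNLS bigenic, WT bigenic, dNLS monogenic and nontransgenic cortex. Points are arrays, 1 mouse each, and bars give the mean and SD. Nova1, Elavl4 and Elavl1 were lowest and Elavl3 highest in dNLS bigenic mice, while Celf4 and Elavl2 were lowest in WT bigenic mice.

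Among the neuronal ELAV genes, Elavl4 encodes HuD, which stabilizes messages such as that of Gap43. Its brightest probe set, 1452894_at, stood at 11.53, 11.62, 11.53, 11.53 and 11.28 in dNLS bigenic mice and at 12.001, 11.93, 11.81 and 11.89 in WT bigenic mice. It stood at 12.04, 12.01, 12.06 and 12.16 in dNLS monogenic mice and from 11.88 to 12.38 in nontransgenic mice (median 12.11). All dNLS bigenic arrays were below every other array. The change against nontransgenic mice was -0.61 ± 0.08 (SE, adjusted p = 2.1e-05, limma), a 1.53-fold decrease that held in all 33 alternatives. Against dNLS monogenic mice it was -0.57 ± 0.09 (adjusted p = 2.8e-04). Against WT bigenic mice it was -0.42 ± 0.09 (adjusted p = 0.00930), a call that ended without dNLS bigenic 5 (adjusted p = 0.0572), without WT bigenic 1 (adjusted p = 0.0741) and with arrays centred on their medians and the lowest values made equal again (adjusted p = 0.0531). The WT bigenic change was -0.20 (adjusted p = 0.224), with overlap.

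The other probe sets of Elavl4 varied with the arrays of large 3' bias, and 1428741_at also with other settings. Probe set 1428741_at changed by -0.44 ± 0.16 in dNLS bigenic mice (adjusted p = 0.0697), and passed without those 2 arrays, at -0.59 (adjusted p = 0.00560). Leaving out nontransgenic 4 alone (adjusted p = 0.0174), nontransgenic 6 alone (0.0398) or dNLS monogenic 2 (0.0499) also brought it past the threshold. With all arrays kept, it passed by limma with dim probe sets filtered (adjusted p = 0.0445), centred arrays (0.0113) and quantile normalization (0.0375). It also passed without the sex term (0.0441) and with array weights (0.00210). Against only the nontransgenic mice of the same line it did not pass, at -0.37 (adjusted p = 0.121). Probe set 1450258_a_at stood at 8.34 on nontransgenic 4 and 7.97 on nontransgenic 6, against 9.54 to 10.61 on the other 6. Its change was 0.14 ± 0.37 (adjusted p = 1) with all arrays, -0.31 (adjusted p = 0.284) without those 2, and -0.40 (adjusted p = 0.0467) with the beta-actin difference as a covariate. With those arrays left out, all 3 Elavl4 probe sets had a negative change, 2 of them past the threshold.

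**Figure D3:**
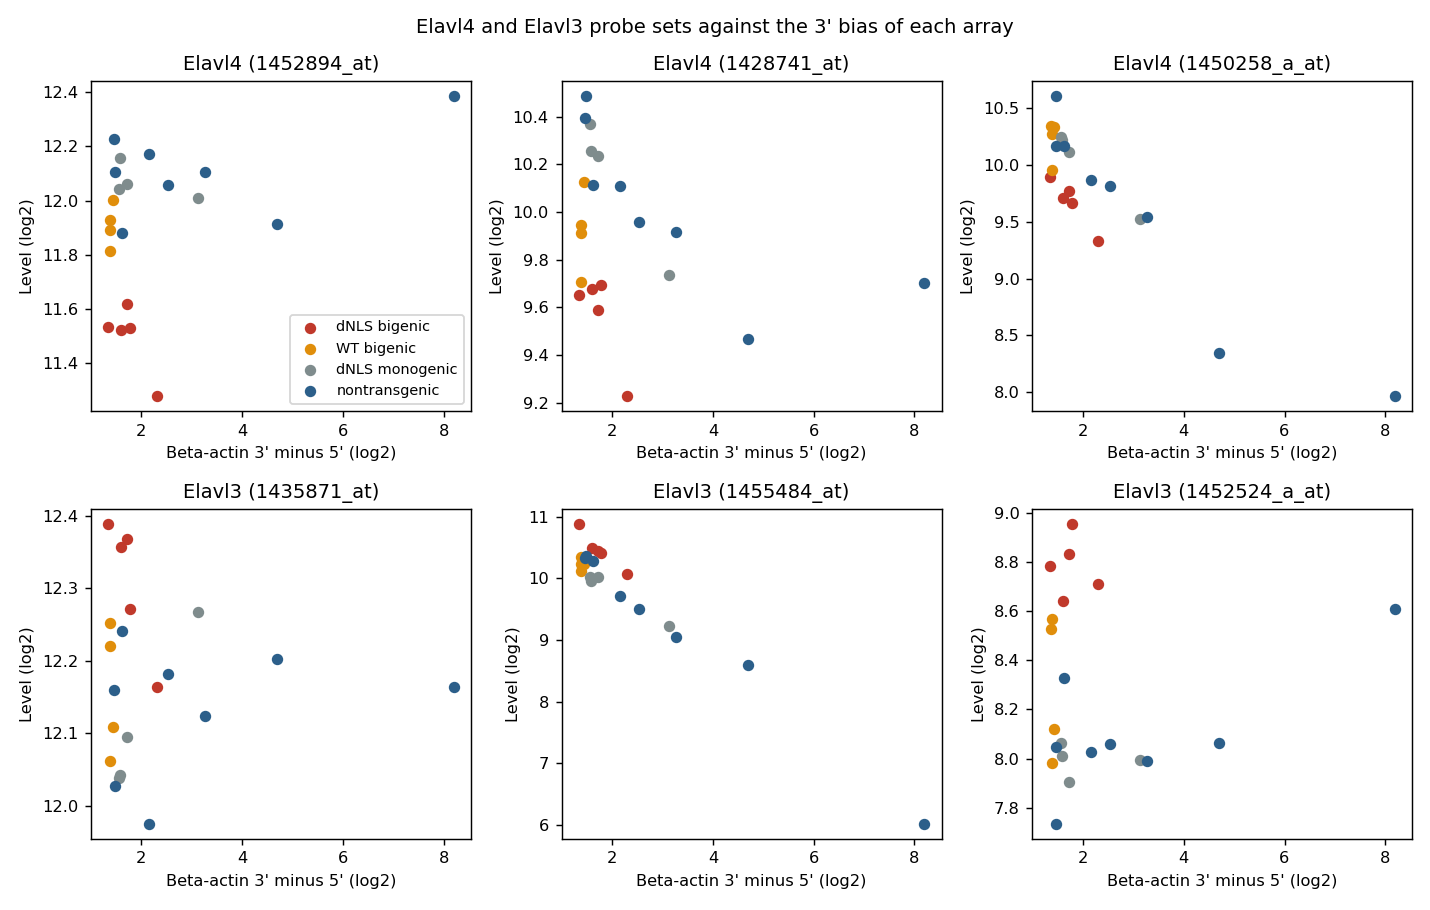
Log2 level (y axis) of the 3 Elavl4 probe sets (upper row) and the 3 Elavl3 probe sets (lower row) against the beta-actin 3' minus 5' difference of each array (x axis), coloured by genotype. The levels of 1450258_a_at and 1455484_at are lowest on the 2 nontransgenic arrays at 4.70 and 8.20, and 1452894_at separates dNLS bigenic arrays from the others at a like beta-actin difference.

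Elavl3 encodes HuC, a neuronal stabilizer and splicing factor, and all 3 of its probe sets had a positive change in dNLS bigenic mice, of which 2 passed the threshold. The dimmest, 1452524_a_at, read 8.64, 8.83, 8.96, 8.78 and 8.71 in dNLS bigenic mice. It read 8.12, 8.57, 7.98 and 8.53 in WT bigenic mice, 8.06, 7.99, 7.90 and 8.01 in dNLS monogenic mice, and 7.73 to 8.61 in nontransgenic mice (median 8.05). Every dNLS bigenic array was above every other array. The change was 0.70 ± 0.13 (SE, adjusted p = 6.4e-04, limma) against nontransgenic mice, kept in all 32 alternatives, and 0.80 ± 0.14 (adjusted p = 0.00115) against dNLS monogenic mice. Against WT bigenic mice it was 0.54 ± 0.16 (adjusted p = 0.0396), and 14 of 31 alternatives ended that call, among them leaving out WT bigenic 1 (0.192) or WT bigenic 3 (0.106).

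The brightest Elavl3 probe set, 1435871_at, averaged 12.31 ± 0.09 in dNLS bigenic mice and 12.13 ± 0.09 in nontransgenic mice (SD, n = 5 and 8), with overlap. Its change of 0.17 ± 0.06 (SE, adjusted p = 0.0431) lost its call in 15 of 33 alternatives, 11 of which left out a single array. With arrays centred on their medians it was 0.09 (adjusted p = 0.361). Probe set 1455484_at averaged 10.46 ± 0.29 in dNLS bigenic mice and 9.23 ± 1.45 in nontransgenic mice (SD, n = 5 and 8), where nontransgenic 6 read 6.02 and nontransgenic 4 read 8.60. Its change of 1.22 ± 0.57 did not pass (adjusted p = 0.163). Without those 2 arrays the change was 0.67 and passed (adjusted p = 0.0417).

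Elavl1 encodes HuR, the member found in most cells. Probe set 1431037_a_at stood at 8.16, 8.46, 8.60, 8.57 and 8.39 in dNLS bigenic mice and at 9.18, 9.07, 9.17 and 9.29 in WT bigenic mice. It stood at 9.35, 8.51, 9.11 and 9.03 in dNLS monogenic mice and from 8.82 to 9.61 in nontransgenic mice (median 9.15). The dNLS bigenic arrays were below all nontransgenic and WT bigenic ones but overlapped dNLS monogenic 2. The change was -0.70 ± 0.14 (SE, adjusted p = 0.00158, limma) against nontransgenic mice, kept in all 32 alternatives. It was -0.65 ± 0.17 (adjusted p = 0.0252) against WT bigenic mice and -0.56 ± 0.16 (adjusted p = 0.0304) against dNLS monogenic mice. Leaving out single dNLS bigenic, WT bigenic or dNLS monogenic mice ended those last calls, with adjusted p up to 0.145 without WT bigenic 1 and 0.131 without dNLS monogenic 1.

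The brighter Elavl1 probe set, 1448151_at, averaged 9.80 ± 0.12 in dNLS bigenic mice, 10.59 ± 0.20 in WT bigenic mice and 10.21 ± 0.31 in nontransgenic mice (SD, n = 5, 4 and 8). Its change in dNLS bigenic against nontransgenic mice was -0.37 ± 0.14 (adjusted p = 0.0663) and passed in 9 of 33 alternatives, among them leaving out nontransgenic 6 (-0.44, adjusted p = 0.00396). Against WT bigenic mice it was lower by 0.72 ± 0.17 on the log2 scale (adjusted p = 0.0114), with no overlap and past the threshold in all 32 alternatives. Both Elavl1 probe sets thus were lower in dNLS bigenic than in WT bigenic mice.

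Elavl2, which encodes HuB, moved in WT bigenic mice on its brightest probe set. Probe set 1421883_at read 11.89, 11.90, 11.80 and 11.86 there, against 11.95 to 12.18 in nontransgenic mice (median 12.08), without overlap. The change was -0.19 ± 0.04 (SE, adjusted p = 0.0352, limma), and 9 of 33 alternatives ended the call, among them leaving out any WT bigenic mouse, the beta-actin covariate (-0.15, adjusted p = 0.0963) and using only nontransgenic mice of line WT12 (adjusted p = 0.291). This probe set read 0.11 higher on the 2 nontransgenic arrays of large 3' bias than on the others. Without those 2 its WT bigenic change was -0.16 (adjusted p = 0.0466, limma). In dNLS bigenic mice the change of this probe set was -0.01 with a 95% interval of -0.10 to 0.07. The direct difference of dNLS bigenic minus WT bigenic was 0.17 ± 0.05 (adjusted p = 0.0364), which 8 of 32 alternatives ended. The 3 dimmer probe sets in use, 1421882_a_at, 1454454_at and 1421881_a_at, changed by 0.35 to 0.65 in dNLS bigenic mice with adjusted p from 0.186 to 0.387, and all 3 were 0.88 to 1.34 lower on the arrays of large 3' bias than on the other nontransgenic arrays. In WT bigenic mice these 3 changed by 0.22, 0.40 and -0.002 in the same order, and none passed. Without the arrays of large bias they changed by -0.03, 0.05 and -0.21, again with none past the threshold.

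Among the CELF genes, Celf4 was lower in WT bigenic mice. Probe set 1426930_at read 11.78, 11.61, 11.58 and 11.69 in WT bigenic mice. It read 12.18, 12.17, 12.18, 12.10 and 12.19 in dNLS bigenic mice, 12.16, 12.21, 12.12 and 12.16 in dNLS monogenic mice and 11.95 to 12.25 in nontransgenic mice (median 12.15). All WT bigenic arrays lay below all other arrays. The change was -0.45 ± 0.05 (SE, adjusted p = 3.9e-04, limma) against nontransgenic mice, a 1.37-fold decrease past the threshold in all 32 alternatives. With only the 2 nontransgenic mice of line WT12 as controls it was -0.44 (adjusted p = 0.0189). In dNLS bigenic mice the change was 0.01 with a 95% interval of -0.08 to 0.10. The direct difference of dNLS bigenic minus WT bigenic was 0.46 ± 0.05 (adjusted p = 2.7e-05), kept in all 31 alternatives.

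Celf4 had 2 other probe sets. In WT bigenic mice 1452240_at changed by -0.42 ± 0.11 (adjusted p = 0.0521), without overlap with nontransgenic mice, and passed in 11 of 33 alternatives. Within arrays, the difference between 1452240_at and 1426930_at was 0.90 ± 0.09 in WT bigenic mice and 0.87 ± 0.15 in nontransgenic mice (SD, n = 4 and 8, exact p = 0.786). Probe set 1452240_at was 0.43 higher on the nontransgenic arrays of large 3' bias than on the others, and 1426930_at was 0.14 higher. Without those arrays the WT bigenic changes were -0.31 (adjusted p = 0.0489) for 1452240_at and -0.42 (adjusted p = 0.00149) for 1426930_at, both by limma. With only the nontransgenic mice of line WT12 as controls, 1452240_at changed by -0.37 (adjusted p = 0.518). Probe set 1426929_at was 1.03 lower on the arrays of large 3' bias. In WT bigenic mice it changed by 0.14 (adjusted p = 0.872) with all arrays and by -0.13 (adjusted p = 0.390) without those 2. In dNLS bigenic mice it changed by 0.44 ± 0.20 (adjusted p = 0.151) with all arrays and passed at 0.20 (adjusted p = 0.0310) without those 2.

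Celf1 and Celf2, which act in splicing and in message decay, had no probe set past the threshold in any of the 5 comparisons. The 3 brighter Celf1 probe sets changed by -0.07 (1426407_at, adjusted p = 0.509), 0.59 (1426408_at, adjusted p = 0.0727) and 0.36 (1427413_a_at, adjusted p = 0.0633) in dNLS bigenic mice. On the arrays of large 3' bias 1426408_at was 1.05 and 1427413_a_at 0.64 lower than on the other nontransgenic arrays, whereas 1426407_at was 0.19 higher. Without those arrays 1426408_at changed by 0.33 (adjusted p = 0.102) and 1427413_a_at by 0.19 (adjusted p = 0.0545). Against only the nontransgenic mice of the same line both passed, at 0.71 (adjusted p = 0.0231) for 1426408_at and 0.43 (adjusted p = 0.0181) for 1427413_a_at, and they passed in 4 and 7 of 32 alternatives in all. The 3 brighter Celf2 probe sets changed by -0.29 to 0.22 in dNLS bigenic mice, with adjusted p from 0.126 to 0.523, and by -0.26 to 0.29 in WT bigenic mice.

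Ptbp1 and Ptbp2 had no call either. For Ptbp1, 1424874_a_at averaged 7.26 ± 0.41 in dNLS bigenic mice, 7.65 ± 0.07 in WT bigenic mice, 7.48 ± 0.16 in dNLS monogenic mice and 7.23 ± 1.02 in nontransgenic mice (SD, n = 5, 4, 4 and 8), where single arrays ran from 5.05 to 8.61. The change in dNLS bigenic mice was -0.10 with a 95% interval of -0.91 to 0.71, and it passed in 1 of 33 alternatives, array weights. For Ptbp2, 1423470_at changed by 0.12 (95% interval -0.12 to 0.37) in dNLS bigenic mice and 0.06 (95% interval -0.20 to 0.31) in WT bigenic mice. Its second probe set, 1423471_at, held the same value of 7.73 on 17 of 21 arrays, so it carried little information.

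**Figure D4:**
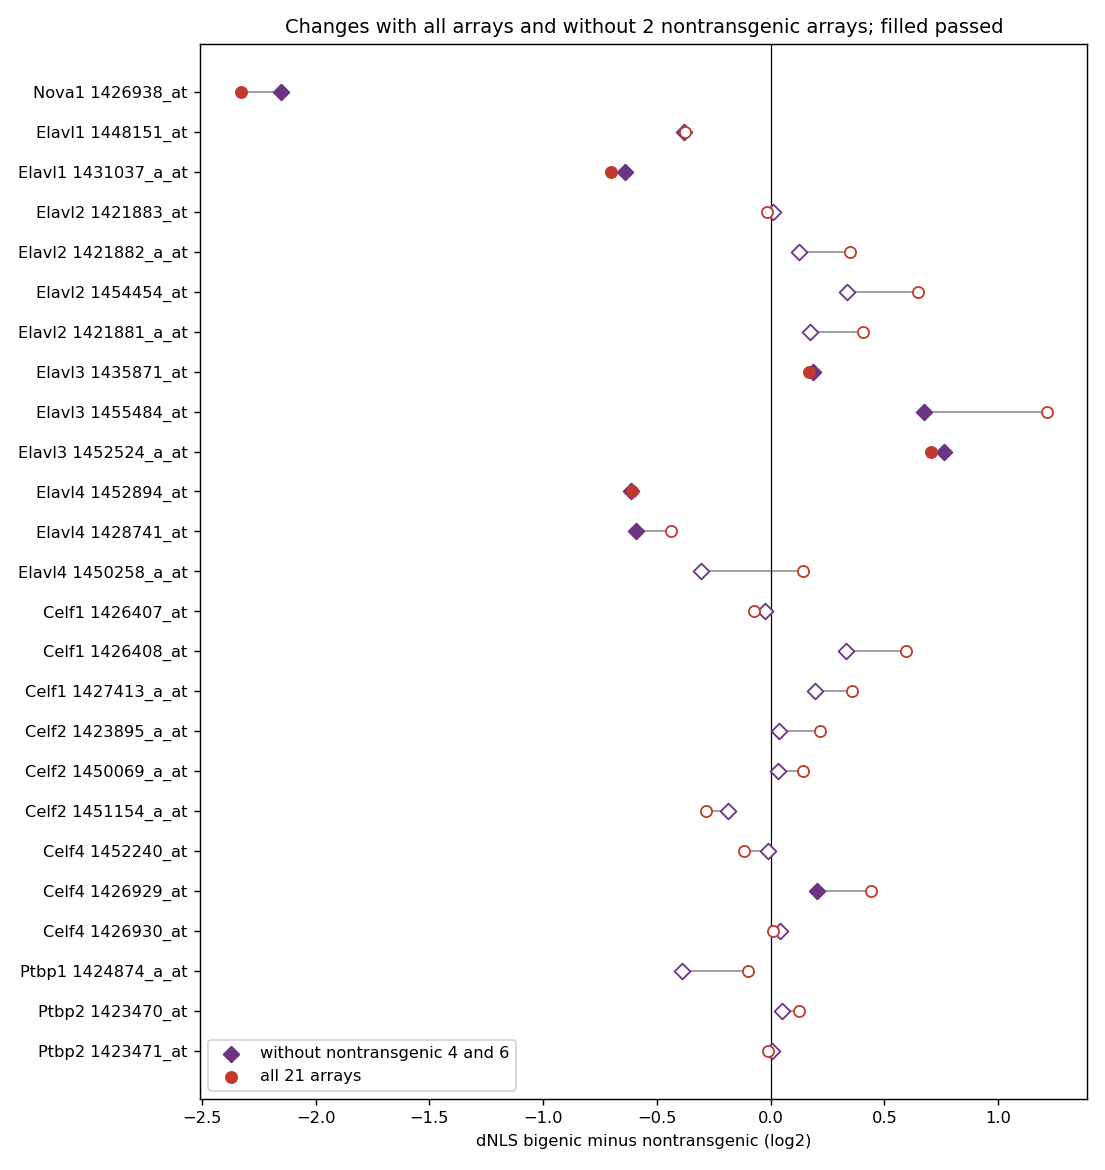
Log2 change of dNLS bigenic minus nontransgenic (x axis) for the 25 member probe sets without nontransgenic 4 and 6 (diamonds) and with all 21 arrays (circles). Filled symbols passed the adjusted p threshold of 0.05. The changes of Nova1, Elavl4 1452894_at, Elavl1 and Elavl3 1452524_a_at stayed near their first values, while Elavl3 1455484_at moved to 0.67 without those arrays, against 1.22 with them.

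In WT bigenic against nontransgenic mice 3 of 31 member probe sets passed, 9.68% against 1.90% of all probe sets. All 3 (Nova1, Elavl2 and Celf4) were lower, and of all probe sets called there 34.9% were higher. Only 1 of the 3 calls, that of Celf4, held in every alternative. With dim probe sets filtered, 4 of 29 members and 658 of 15639 probe sets passed. In dNLS bigenic against WT bigenic mice 7 passed, 22.6% against 8.41% of all probe sets, with 3 higher and 4 lower. In dNLS bigenic against dNLS monogenic mice 4 passed, 12.9% against 11.9% of all, with 1 higher and 3 lower. These comparisons share arrays and are not independent. In dNLS monogenic against nontransgenic mice no member passed and 0% of all probe sets did by limma; 0 of the members and 333 of all probe sets had an unadjusted p under 0.05.

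Probe sets of the same gene were set against each other on each array, so that a shift of the whole array cancels. Of 30 pairs from 9 genes, 2 moved apart in dNLS bigenic against nontransgenic mice by two-sided exact permutation tests adjusted over the pairs, and 4 had an unadjusted p under 0.05. In Elavl3, 1435871_at minus 1452524_a_at averaged 3.53 ± 0.15 in dNLS bigenic and 4.03 ± 0.22 in nontransgenic mice (SD, n = 5 and 8), a difference of -0.50 (exact p = 0.00311, adjusted p = 0.0466). It also passed without the arrays of large bias (adjusted p = 0.0325). The other pair was that of Nova1, which moved by -2.15 (exact p = 7.8e-04, adjusted p = 0.0233, the smallest p that these permutations can give). Its second probe set, 1452245_at, lay near the lowest value in every group, with means of 2.27 to 2.59, so this pair restates the change of 1426938_at. Leaving out any dNLS bigenic array left 0 pairs called, and leaving out any nontransgenic array except nontransgenic 6 left 1. In WT bigenic mice 0 of 30 pairs passed, 6 had an unadjusted p under 0.05, and the smallest p this design can give is 0.00202. No probe sequences were used here, so which transcript forms each probe set reads was not analysed here.

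With 1 probe set per gene, that of highest mean, 3 of the 10 members passed in dNLS bigenic against nontransgenic mice, where 21.5% of all 12393 genes did. In WT bigenic mice 2 of 10 passed, against 2.06% of all genes. Those p-values were adjusted over all probe sets. Adjusted over the genes alone, 3 of 10 members and 2759 genes passed in dNLS bigenic mice, and 3 of 10 members and 276 genes in WT bigenic mice, where Celf4 1452240_at was added (adjusted p = 0.0483). Related RNA-binding proteins were taken the same way. Of 32 listed, 24 were measured, 1 rose and 4 fell in dNLS bigenic mice, and their median change was -0.12 against 0.00 over all genes. The share that passed, 20.8%, was near that of all genes. Fxr2, a relative of the fragile X protein, rose by 0.75 (adjusted p = 1.2e-05). Khdrbs3 (-0.62, adjusted p = 0.00541), a STAR-family splicing factor, Tia1 (-0.48, adjusted p = 0.00137), a stress granule protein, Zfp36l1 (-0.46, adjusted p = 8.5e-04), which promotes decay of AU-rich messages, and Qk (-0.42, adjusted p = 0.0234), the glial splicing factor quaking, fell. In WT bigenic mice 1 of the 24 passed, Tia1 at -0.40 (adjusted p = 0.0486), which is 4.17% beside 2.06% of all genes.

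Transcripts described as stability or translation targets of ELAV or CELF proteins were also counted, 15 measured of 17 listed, with a median change of -0.20 in dNLS bigenic mice. Of these 1 rose, Ache (acetylcholinesterase) by 0.81 (adjusted p = 0.00783), and 4 fell. Those were Ccna2 (cyclin A2, -1.21, adjusted p = 0.0388), Ptgs2 (cyclooxygenase 2, -1.19, adjusted p = 2.6e-04), Cdkn1b (a cell cycle inhibitor, -0.38, adjusted p = 0.00324) and App (the amyloid precursor, -0.20, adjusted p = 0.0196). The 5 are 33.3% of the 15, beside 21.5% of all genes. In WT bigenic mice App alone passed, at -0.26 (adjusted p = 0.0353), which is 6.67% beside 2.06% of all genes. Of 15 genes described as splicing targets, 11 were measured as whole-gene signal, with a median of -0.05. Ank3 (ankyrin G) was higher by 0.37 (adjusted p = 0.0115), Dab1 (a reelin adaptor) changed by -0.27 (adjusted p = 0.0236), and the rest did not pass, so that 18.2% passed beside 21.5% of all genes. In WT bigenic mice none of the 11 passed by limma. These arrays do not measure splicing.

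Of 61 cell markers measured, 15 passed in dNLS bigenic against nontransgenic mice, 2 higher and 13 lower. In both directions together that is 24.6% beside 21.5% of all genes, near that background. By direction the marker calls leaned lower. Of all genes called with p-values adjusted over the genes alone, 48.4% were higher. In dNLS bigenic against nontransgenic mice, 2 of 10 pan-neuronal markers were higher (Thy1, 0.34, and Tubb3, 0.20) and 1 lower (Nefl, -0.45). Of 4 excitatory neuron markers 2 were lower, and the mean log2 level of the list ran from 9.45 to 10.32 in dNLS bigenic mice and from 9.25 to 10.98 in nontransgenic mice. Of 4 genes listed as hippocampal markers 3 were lower (Wfs1, Calb1 and Neurod1), with Prox1 at the lowest value on all arrays. The list's level ran from 7.95 to 8.25 in dNLS bigenic and 8.93 to 9.06 in nontransgenic mice. Whether these 3 read hippocampal tissue or neurons of the cortex was not tested. Lower markers were 2 of 6 for interneurons and 1 each of 7 for astrocytes, 7 for microglia, 5 for oligodendrocytes, 4 for their precursors and 3 for striatum, and 0 of 6 vascular, 3 choroid plexus and 2 blood markers passed by limma. The list level ran from 11.30 to 11.62 in dNLS bigenic and 11.54 to 11.72 in nontransgenic mice for astrocytes. For microglia it ran from 8.54 to 9.36 in dNLS bigenic and 8.66 to 9.86 in nontransgenic mice, and for choroid plexus from 5.40 to 7.39 in dNLS bigenic and 4.89 to 6.26 in nontransgenic mice. In blood, Hba-a1 was at the lowest value on all arrays. The part of cell makeup in the changes of Nova1 and the ELAV genes was not tested.

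Of the 61 markers 2 passed in WT bigenic against nontransgenic mice, both lower, which is 3.28% beside 2.06% of all genes: 1 of 4 excitatory neuron markers and 1 of 4 hippocampal markers. The hippocampal list ran from 8.73 to 8.85 in WT bigenic and 8.93 to 9.06 in nontransgenic mice, and that of oligodendrocyte precursors from 8.31 to 8.38 in WT bigenic and 8.40 to 9.18 in nontransgenic mice, both without overlap. The microglial list ran from 9.68 to 10.62 in WT bigenic and 8.66 to 9.86 in nontransgenic mice, with overlap. The part of these levels in the WT bigenic changes of Nova1, Elavl2 and Celf4 was not tested.

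Tardbp, the mouse gene for TDP-43, had 4 probe sets, which changed by -1.32 (1423723_s_at, adjusted p = 1.8e-08), -0.43 (1455655_a_at, adjusted p = 0.309), -0.23 (1428467_at, adjusted p = 0.0240) and 1.11 (1434419_s_at, adjusted p = 3.5e-04) in dNLS bigenic mice, and none passed in WT bigenic mice, where the adjusted p ran from 0.214 to 1. Without probe sequences, whether any of these probe sets also reads the human transgene was not analysed.

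The probe sets most like Nova1 over all 21 arrays, among 13160 candidates above the lowest value on every array, were those of Spint2, Vapb, Socs5, Mkrn1 and Matn2, with Pearson's r from 0.95 to 0.98. Their changes in dNLS bigenic against nontransgenic mice were -2.56, -1.28, -0.46, -1.55 and -2.41. Vapb encodes a membrane protein of the endoplasmic reticulum. For Elavl4 they were Atp6v1c1, Cyb561, Fgf13, Actr3 and Dnajb6, with r from 0.93 to 0.94 and changes from -1.02 to -0.49. The arrays share genotype groups, RNA quality and scaling, and these likenesses are given as a description over arrays that fall into groups.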

How the data were processed

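Cerebral cortex RNA was extracted with TRIzol, 3 ug was amplified in 1 cycle from a poly(T) primer and labelled with biotin, per the labels' protocols, which give a RIN of at least 7. The deposited values are log2 levels of 22690 probe sets on 21 arrays. The log base was read from their range, 2.04 to 15.1, and array medians of 5.76 to 6.05. How the authors corrected background, scaled and summarized them is not given in the sources used here; Partek appears, with neither version nor role, in the submitters' processing notes. Microarray signal has no read depth, and the number of arrays limits precision.

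After 64 control probe sets were left out, 22626 were tested. The supplied annotation gave 20380 of these 1 symbol, 691 several and 1555 none. Group means and labelled sex were fitted to all 21 arrays in limma 3.58.1 (R 4.3.3; lmFit, eBayes with trend), with Benjamini-Hochberg adjustment over the 22626 and a threshold of 0.05. The script was tested on simulated data. Pairs of probe sets were compared by exact permutation over arrays, without a sex term. By label, dNLS bigenic mice were 4 males and 1 female, and WT bigenic mice 1 male and 3 females. The dNLS monogenic mice were 3 males and 1 female, and the nontransgenic mice 4 males and 4 females. Each array is 1 mouse, and the labels give neither litters nor batches. Alternatives changed the filter, scaling, sex term, variance model, array weights, 3' bias handling, controls, unit and single arrays. One, centred arrays with their lowest values made equal again, was chosen after seeing the data.

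Every member probe set was described. From the related lists, genes past the threshold in dNLS bigenic against nontransgenic mice were named, at most 6 a list by size. The members and lists were chosen with earlier results of these data known.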

Additional observations from a re-analysis of the deposited data

Results flagged for a closer look

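Within groups of 4 to 8 arrays, 16 of 99 sets of values held an array far from the rest by Dixon's criterion. Chance meets it in about 1 of 20 independent sets without ties. These sets share arrays, so the count cannot be read against that rate. For Ptbp2 1423471_at the other arrays of the dNLS bigenic and WT bigenic groups were tied at 7.73, so any departure was flagged. The nontransgenic array with the largest 3' bias, nontransgenic 6, stood apart for Elavl3 1455484_at (6.02), Ptbp1 1424874_a_at (5.05) and Ptbp2 1423471_at (7.90, high). The array dNLS monogenic 2, whose beta-actin difference of 3.13 was the largest of its group, was low for Elavl3 1455484_at (9.22), Celf1 1426408_at (11.69), Celf1 1427413_a_at (12.06) and Celf2 1423895_a_at (13.35). The array dNLS bigenic 5 was low for Elavl4 1452894_at (11.28), Elavl4 1428741_at (9.23), Celf2 1423895_a_at (13.37) and Celf4 1452240_at (12.61). Its beta-actin difference of 2.30 was the largest of its group but below that of dNLS monogenic 2. It was also the only female of that group. On the nontransgenic arrays of large 3' bias, Elavl4 1428741_at and Celf2 1423895_a_at read 0.58 and 0.82 lower than on the others. Elavl4 1452894_at and Celf4 1452240_at read 0.06 and 0.43 higher there. The array dNLS bigenic 4 was low for Celf4 1426930_at (12.10) and high for Ptbp2 1423471_at (7.78). WT bigenic 3 was low for Elavl2 1454454_at (9.75), Celf2 1450069_a_at (12.66) and Ptbp2 1423471_at (7.55).

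The response of dNLS bigenic and WT bigenic mice differed directly (dNLS bigenic minus WT bigenic, limma, adjusted p under 0.05) for Nova1 (-1.18), Elavl1 1448151_at (-0.72), Elavl1 1431037_a_at (-0.65), Elavl2 1421883_at (0.17), Elavl3 1452524_a_at (0.54), Elavl4 1452894_at (-0.42) and Celf4 1426930_at (0.46). The transgene and the mouse line cannot be told apart in these differences.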

How the results depend on the processing

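Alternative settings gave 4000 values over the 25 member probe sets with a mean of at least 3 and the 5 comparisons. Of these, 3814 stayed on their side of the threshold, 95 came past it and 90 fell short of it. The other 1, Elavl4 1450258_a_at at -0.40 with the beta-actin covariate, came past it with the opposite sign. Values that did not pass could change sign and still count as staying. Without the arrays of large bias, Elavl4 1450258_a_at in dNLS bigenic against nontransgenic mice did so, at -0.31 against 0.14. Calls held in every alternative for 4 of 5 member probe sets in dNLS bigenic against nontransgenic mice, 1 of 3 in WT bigenic against nontransgenic, 2 of 7 in dNLS against WT bigenic and 3 of 4 in dNLS bigenic against dNLS monogenic.

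For dNLS bigenic against nontransgenic mice, the count of all probe sets called, 4377, was 6945 with array weights and 2759 over genes, and the member count, 5, was 9 with dim probe sets filtered, 8 with quantile normalization, 13 with array weights, 9 with the beta-actin covariate, 9 without the arrays of large bias and 3 over genes. For WT bigenic against nontransgenic mice, 430 was 658 with the filter, 799 without the sex term, 9682 with arrays centred on their medians, 656 with sex as read, 1403 with array weights, 255 with the covariate, 15 with same-line controls and 276 over genes. The member count, 3, was 8 with centred arrays, 1 with quantile normalization, 1 with the covariate and 1 with same-line controls. For dNLS against WT bigenic mice, 1902 was 4744 with weights, 3736 with the covariate and 3492 without the arrays of large bias, and the member count, 7, was 4 with centred arrays, 3 with centred arrays whose lowest values were made equal again, 11 with weights and 4 over genes. For dNLS bigenic against dNLS monogenic mice, 2683 was 7035, 4587 and 4555 in the same order and 1773 over genes, and the member count, 4, was 9, 9 and 7. The cause of these shifts was not tested. Centring shifts the many tied lowest values by a different amount on each array and moved the median change of all probe sets to -0.11 for WT bigenic mice. With the lowest values made equal again, an alternative chosen after seeing the data, that median was 0.00 and 528 were called. The share of higher calls was 39.8% with centring and 40.6% with centring and equal lowest values, against 52%, for dNLS bigenic, and 5% and 11.7%, against 34.9%, for WT bigenic, each against nontransgenic mice; with same-line controls the WT bigenic share was 20%.

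Leaving out single arrays gave 3736 to 5351 calls (4 to 8 members) for dNLS bigenic against nontransgenic mice, 62 (without WT bigenic 3) to 924 (1 to 4 members) for WT bigenic, 1075 (without WT bigenic 1) to 2878 (2 to 7 members) for dNLS against WT bigenic, 2038 to 3901 (3 to 7 members) for dNLS bigenic against dNLS monogenic, and 0 to 1 (0 members) for dNLS monogenic against nontransgenic mice. The 8 came without nontransgenic 6, as did the 7 against dNLS monogenic mice, and the 2 against WT bigenic mice without WT bigenic 1. Paired probe sets gave 0 to 2 calls in dNLS bigenic and 0 in WT bigenic mice.

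No paired analysis was possible because the labels carry no replicate number shared between groups.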
